A study of Bos indicus with 9 samples.

Results

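The titin locus was described as the 600 kb window of chromosome 2 from 17900000 to 18500000 on ARS-UCD1.2, which was selected on earlier results of these same peak lists. Of the 140923 open chromatin regions (peaks) in the 3 lists, 138 overlapped the window, and 125 of these were muscle peaks, 10 hypothalamus peaks and 3 liver peaks. ATAC-seq, in which the Tn5 transposase cuts accessible DNA and the fragments are sequenced, was performed on hypothalamus, muscle and liver of the same 3 unrelated, post-pubertal Brahman heifers (2047, 2054 and 2057), giving 9 libraries from untreated, frozen tissue. The 3 heifers of a tissue share 1 consensus list of 78528 (hypothalamus), 40104 (muscle) or 22291 (liver) peaks, so no peak has a value for a single heifer and no spread between heifers can be given. Each peak has a length, an area under the curve (AUC) of the −log10 p above the caller's threshold, and a −log10 p at its summit that the authors combined over the heifers and did not correct for multiple tests. The lists have no common scale, so values were placed as percentiles within their own list, and no test was made between tissues. The lists hold no read counts, and the depth behind a peak is therefore unknown.

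Titin, encoded by TTN, is the giant protein of the sarcomere of skeletal and heart muscle. It runs from the Z-disc to the M-band, acts as a molecular spring, and is built from one of the longest coding sequences known in mammals. Its neighbour PLEKHA3 encodes a phosphoinositide-binding protein of the Golgi that is used by many cell types. The peak lists are on ARS-UCD1.2, the cattle reference that the authors annotated with Bos taurus libraries. In the gene order of a different assembly, of Bos indicus (NIAB-ARS_B.indTharparkar_mat_pri_1.0), TTN lies between CCDC141, which encodes a coiled-coil protein, and PLEKHA3. FKBP7, PJVK and PRKRA follow, which encode a prolyl isomerase of the endoplasmic reticulum, a protein of the inner ear and an activator of the kinase PKR. No gene of these was placed by coordinates on ARS-UCD1.2 here. The annotation of the muscle peaks names CCDC141, PLEKHA3, FKBP7 and PRKRA but assigns no peak to TTN, so the stretch between the last peak inside CCDC141 and the promoter peak of PLEKHA3 was taken as the titin interval. On chromosome 2 from 22084093 to 22084422, the muscle list held a peak at the promoter of CHRNA1, a subunit of the muscle acetylcholine receptor. Its summit −log10 p was 5.59, and no peak of the other lists overlapped it. Of all muscle peaks of chromosome 2, 44.8% had no such overlap, so this peak alone cannot check the tissue label. Other marker genes of the tissues were not analysed here.

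Muscle peaks made up most of the peaks in the window. Muscle had 20.8 peaks per 100 kb of the window against 1.03 per 100 kb over chromosome 2, and 8.88% of the 1407 muscle peaks of the chromosome lay in it. Hypothalamus had 1.67 peaks per 100 kb of the window against 2.40 over the chromosome, and liver had 0.50 against 0.356. The muscle peaks covered 19.1% of the window, compared with 0.669% of chromosome 2. Hypothalamus peaks covered 1.33% of the window and 1.85% of the chromosome, and liver peaks covered 0.288% and 0.185%. In bulk tissue, the share of cells that are open and the openness of each cell cannot be told apart. The density of peaks stood far from that of the chromosome in the muscle list and near it in the other lists.

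**Figure D1:**
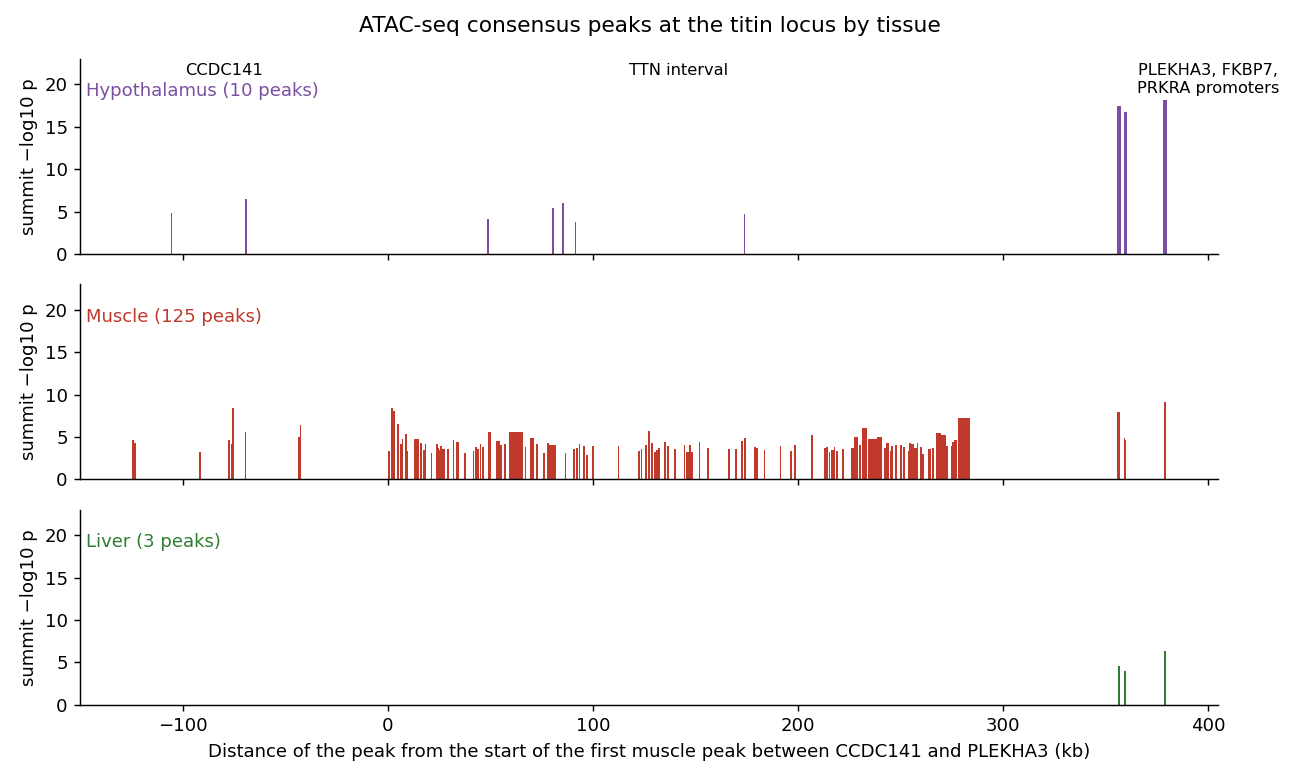
Peaks of the titin window in each tissue. The x axis is the distance in kb from the start of the first muscle peak between CCDC141 and PLEKHA3, the y axis is the summit −log10 p as deposited, bars span the peaks (those under 0.8 kb are drawn 0.8 kb wide), and each panel is 1 consensus list of 3 heifers. The 112 muscle peaks of the titin interval form a run of 284 kb with mostly low summits, whereas the tallest hypothalamus bars stand at the promoters of PLEKHA3, FKBP7 and PRKRA.

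To place the window among others, chromosomes 1 to 29 and X were divided into 4337 windows of 600 kb. The division was aligned so that the titin window was 1 of them, and chromosome ends that did not fill a window were left out. Clusters elsewhere can therefore be split between windows, and ranks under other alignments were not tested. The titin window ranked 1 for the number of muscle peaks, with 125 against a median of 3 and 122 in the next window. It ranked 1 also for muscle peaks with no overlap in the other lists, with 118 against a median of 1 and 54 in the next window. By the bases covered by muscle peaks it ranked 3, and by their summed AUC it ranked 12. In the other lists the window was closer to the median. It ranked 2267 in hypothalamus, where 10 peaks stood beside a median of 11, and 996 in liver, where 3 peaks stood beside a median of 1. When only muscle peaks with summits of −log10 p 5 or more were kept, 18 remained in the titin window and it ranked 103 of 4337 in number, so its first place rested on the many low peaks. These ranks describe a window that was chosen for its muscle peaks and carry no test.

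**Figure D2:**
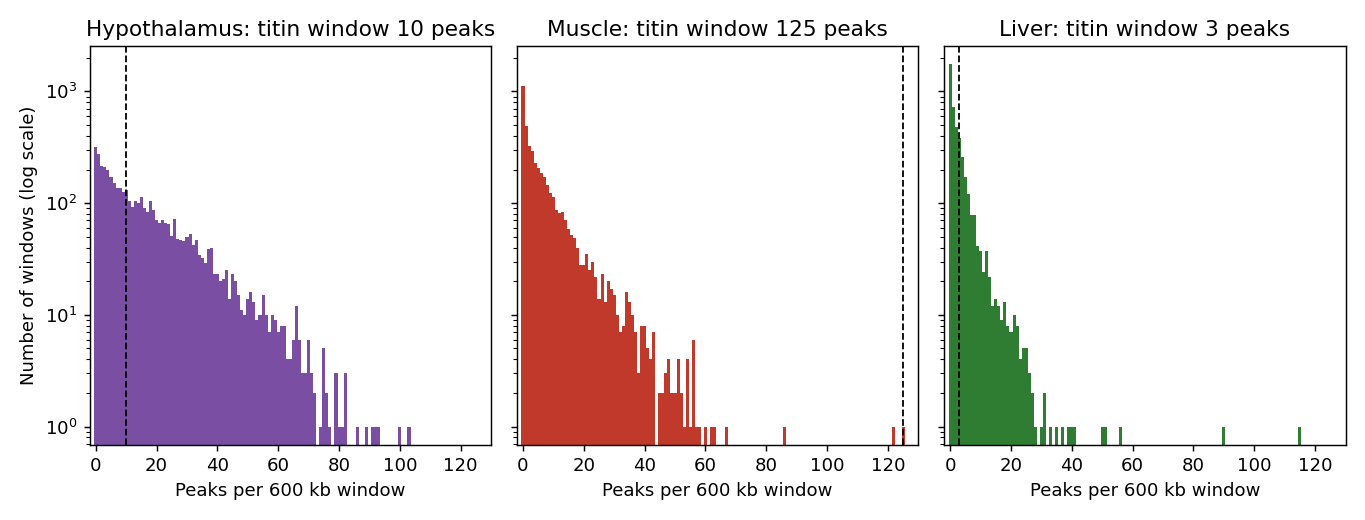
Peaks per 600 kb window on chromosomes 1 to 29 and X in the 3 lists. Bars give the number of windows (log scale) for each number of peaks, and the dashed line marks the titin window, which lies at the far right in muscle (125 peaks) and within the bulk of windows in hypothalamus (10 peaks) and liver (3 peaks).

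No further muscle peak lay within 100 kb of the window on either side. Over chromosome 2 there was 1.03 muscle peak per 100 kb, so such a distance does not set the window apart. The first muscle peak inside lay from 17934535 to 17934760 (summit −log10 p 4.68), and the nearest one outside on that side lay from 17798961 to 17799272 (4.45), 100.7 kb before the window. The last one inside lay from 18437304 to 18438585 (9.12), and the nearest outside on the other side lay from 18640241 to 18640540 (4.93), 140.2 kb after the window.

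The muscle peaks fell into 3 groups along the window. Inside CCDC141 lay 9 muscle peaks, 6 of them labelled intronic and 3 exonic. The titin interval held 112 muscle peaks (89.6% of those in the window), all of them labelled distal intergenic in the annotation, with CCDC141 as the nearest gene for 27 and PLEKHA3 for 85. The remaining 4 were promoter peaks, 1 of PLEKHA3, 2 of FKBP7 and 1 of PRKRA. The interval contained 5 hypothalamus peaks and no liver peak.

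The 112 muscle peaks of the titin interval formed one run on chromosome 2 from 18058897 to 18343004, a length of 284 kb. It began 42.3 kb after the last muscle peak of CCDC141 and ended 71.7 kb before the PLEKHA3 promoter peak, and neither of these flanking stretches held a muscle peak. Within the run, the peaks covered 108536 bp, or 38.2% of it, which is 27.3% of the 398 kb interval. The 111 gaps between neighbouring peaks had a median of 747 bp, 21 were under 200 bp and 63 under 1 kb, and the longest was 12092 bp. When peaks less than 1 kb apart were joined, 49 stretches remained, and the longest held 11 peaks over 20.1 kb, from 18284924 to 18304990. The 5 hypothalamus peaks covered 0.854% of the same run. Between 18233116 and 18414574, a stretch of 181 kb on the PLEKHA3 side, the hypothalamus list held no peak. Of the 4337 windows of 600 kb, 320 held no hypothalamus peak, so an empty stretch of this length is not particular to the locus.

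Most of these muscle peaks were long and low. Their median length was 642 bp, which is percentile 65.5 of the muscle list, where the median was 482 bp, and 82 of the 112 were longer than that. Their median summit −log10 p was 3.89, percentile 14.6 of the list (list median 5.35), and 9 of the 112 were above the list median. The median AUC was 364, percentile 26.5 (list median 679). Divided by length, the median AUC was 0.656 per bp, percentile 8.73 (list median 1.55), and 5 of the 112 were above the list median. The peaks thus lay above the list median in length and below it in height. No peak had an AUC under 200.0, so a peak that is low per base is listed only if it is long enough to reach that area. A summit −log10 p of at least 5 was reached by 13 of the 112 peaks (11.6%, 95% Wilson interval 6.91 to 18.9), and by 18 of the 125 of the window, against 56.7% of the muscle list. The longest 10% of the list included 21 of the 112 (18.8%, 95% Wilson interval 12.6 to 27.0). Intervals cover counting error over peaks only, and they treat neighbouring peaks of 1 locus as independent, which these need not be.

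Muscle peaks without overlap in the other lists were lower elsewhere too. The 10976 muscle peaks of chromosomes 1 to 29 and X that overlapped no other list reached 4.53 at the summit (median −log10 p), and the 19507 that did reached 5.70. Against the former, the 109 peaks of the interval without overlap were still lower at the summit, with a median of 3.89, and longer, with a median of 639 bp against 402 bp. Their median AUC per bp was 0.654 against 1.23. Peaks over 1 kb made up 22.9% of the 109 and 4.95% of the 10976.

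**Figure D3:**
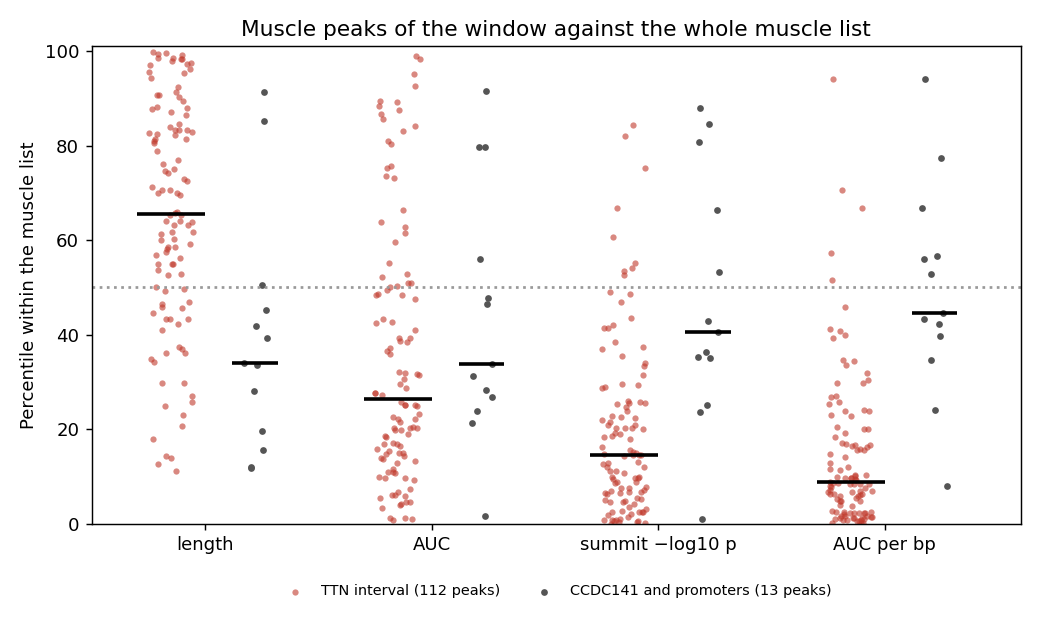
Percentiles of the 125 muscle peaks of the window within the muscle list. Each point is 1 peak, red for the titin interval and grey for CCDC141 and the promoters, black bars are medians, and the dotted line is the list median; in the interval the median stands at 65.5 for length, 26.5 for AUC, 14.6 for the summit −log10 p and 8.73 for AUC per bp.

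The run was not even along its length. Divided into 5 equal parts from the CCDC141 side to the PLEKHA3 side, it held 30, 16, 19, 18 and 29 muscle peaks. The peaks covered 43.9%, 37.2%, 21.8%, 19.2% and 68.9% of these parts. The last part held 41.5% of the summed AUC of the run and the first part 24.98%, whereas the third and the fourth held 7.29% and 7.62%. Both ends were therefore denser than the middle, and the end near PLEKHA3 was the most covered. The median summit −log10 p differed less, with 4.10 in the first part, 3.63 in the third and 4.04 in the last. Of the 13 peaks whose summit −log10 p was 5 or more, 5 lay in the first part and 5 in the last. The hypothalamus peaks did not follow this order, with 1 in the first part, 3 in the second and 1 in the fourth.

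**Figure D4:**
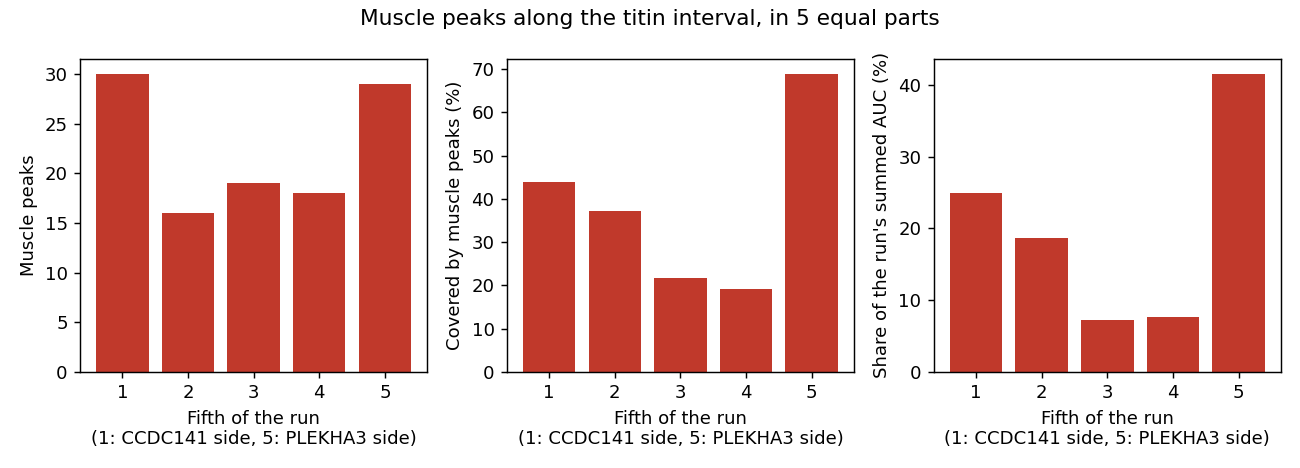
The run of muscle peaks divided into 5 equal parts, from the CCDC141 side (1) to the PLEKHA3 side (5). Bars give the number of muscle peaks, the share of each part covered by them (%) and its share of the summed AUC of the run (%); parts 1 and 5 are highest in all 3, and part 5 reaches 68.9% covered and 41.5% of the AUC.

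A few broad peaks carried much of the signal. The peak with the largest AUC of the run is its last, from 18337070 to 18343004, and holds 12.7% of the summed AUC of the run in 5.47% of the covered bases. It is 5935 bp long (percentile 99.7), and its AUC per bp of 2.02 was at percentile 66.8, so it was among the few members that were both long and above the list median per base. The next, from 18117794 to 18124760, was the longest of the window at 6967 bp, and ranked 108 in length among the 40104 muscle peaks. Its AUC was 7692 (percentile 98.3), but its summit −log10 p of 5.59 (percentile 54.1) and AUC per bp of 1.10 (percentile 29.8) were moderate or low. The peak from 18293196 to 18297361 had an AUC of 4125 (percentile 95.2) with a summit −log10 p of 4.77 (percentile 38.4). The 3 together held 25.3% of the summed AUC of the run in 15.7% of the covered bases. The 10 largest of the run held 44.9% in 30.4% of the covered bases.

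The 10 muscle peaks with the largest AUC in the whole window are not the same set as the 10 of the run, since they include a promoter peak. Of those not yet described, 4 repeated this broad form. The peaks starting at 18328636, 18071785, 18290021 and 18128225 were 2528, 2476, 2452 and 2102 bp long, all at or above percentile 97.5. Their AUC values were 3294, 2737, 2570 and 2482, and their AUC per bp was between percentiles 27.0 and 39.3. The 10 also held the PRKRA promoter peak (AUC 3115) and the peak from 18107701 to 18109343 (AUC 2375), which are described with the shared peaks. Another form was seen near the CCDC141 end of the run, from 18060335 to 18061586, where a peak of 1252 bp had an AUC of 2699 and a summit −log10 p of 8.45 (percentile 84.4), the highest in the titin interval. The 377 bp peak that follows it from 18061694 to 18062070 reached 8.10 and had the highest AUC per bp of the interval (4.01, percentile 94.1). The first peak of the run, from 18058897 to 18060014, was in contrast low, with a summit −log10 p of 3.28 (percentile 1.5) and an AUC of 278 over 1118 bp. High and low peaks thus stood next to each other at this end.

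The 9 muscle peaks inside CCDC141 had another form. They were short, with a median of 363 bp (percentile 34.0) and a range from 226 to 486 bp, and their median AUC per bp was at percentile 44.7 of the list against 8.73 in the titin interval. Their summit −log10 p ran from 3.21 to 8.46 with a median of 4.68. The highest belonged to the peak from 17983310 to 17983751 (442 bp, AUC 1764). All 9 lacked an overlap in the other lists, compared with 28.5% of the muscle list, 36.0% of its peaks on chromosomes 1 to 29 and X, and 44.8% of those on chromosome 2.

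Sharing with the other tissues was rare in the titin interval. Of the 125 muscle peaks of the window, 118 (94.4%, 95% Wilson interval 88.9 to 97.3) overlapped no peak of hypothalamus or liver, compared with 28.5% of the muscle list, 36.0% of the muscle peaks of chromosomes 1 to 29 and X, and 44.8% of those of chromosome 2. In the interval the number was 109 of 112 (97.3%, 92.4 to 99.1). Among peaks with summits of −log10 p 5 or more in every list, it was 16 of 18 in the window, compared with 22.6% of the muscle list kept in that way. Since the window was chosen for its muscle peaks, the count is given as a description. Muscle peaks that overlapped both other lists numbered 4 of 125, and all 4 were the promoter peaks. Such peaks made up 39.3% of the muscle list, 30.4% of its peaks on chromosomes 1 to 29 and X, and 26.9% of those on chromosome 2. Of the hypothalamus peaks, 4 of 10 (95% Wilson interval 16.8 to 68.7%) overlapped no other list. The share was 67.9% in the whole hypothalamus list and 78.0% on chromosome 2. This comparison is not independent of the choice of the window, since muscle peaks covered 19.1% of it and 0.669% of chromosome 2. The hypothalamus share is therefore given as a description too. For liver it was 0 of 3 (95% Wilson interval 0 to 56.1%), compared with 9.93% of that list and 6.39% on chromosome 2.

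The 3 muscle peaks of the interval that overlapped a hypothalamus peak were broad, and each contained the whole of it. On chromosome 2 from 18107701 to 18109343, the summit −log10 p was 5.56 in muscle (percentile 53.5) and 4.13 in hypothalamus (percentile 16.3), and the summits lay 948 bp apart. From 18137426 to 18140892, it was 4.09 in muscle (percentile 20.3) and 5.41 in hypothalamus (percentile 42.3), with the summits 1398 bp apart. The highest points in the tissues were therefore at different places in these regions. From 18232428 to 18233548, the values were 4.90 (percentile 41.3) and 4.72 (percentile 30.1), and the summits fell on the same base.

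The other hypothalamus peaks of the interval lay near muscle peaks, as most places in the run do, where the median gap between muscle peaks was 747 bp. The one from 18150354 to 18150631 (summit −log10 p 3.802) was 44 bp from the nearest muscle peak, and the one from 18143962 to 18144503 (6.06) was 780 bp from it. Inside CCDC141, the hypothalamus peak from 17989714 to 17990156 (6.47) was 68 bp from a muscle peak with 5.55, whereas that from 17953407 to 17953590 (4.78) was 13518 bp from the nearest. Of the bases under hypothalamus peaks in the interval, 66.2% were also under muscle peaks, which covered 38.2% of the run that holds these hypothalamus peaks.

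At the promoters on the PLEKHA3 side, peaks of all tissues coincided, and by summit percentile the tissues stood in another order. At the promoter of PLEKHA3, the muscle peak from 18414659 to 18415685 had a summit −log10 p of 7.92 (percentile 80.7), the hypothalamus peak 17.4 (percentile 94.5) and the liver peak 4.60 (percentile 38.4). Their lengths were 1027, 1865 and 364 bp, and the summits of hypothalamus and liver lay 45 and 88 bp from that of muscle. The liver peak was wholly inside the muscle peak, and the muscle peak wholly inside that of hypothalamus. Of the members named for the locus, PLEKHA3 thus had a peak in every list, and the interval of TTN had none in liver. Absence was common in the liver list, where 1745 of the 4337 windows of 600 kb held no peak. Liver had 0.356 peaks per 100 kb over chromosome 2, so the lack of a peak is not particular to TTN.

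At the promoter of FKBP7, 2 short muscle peaks of 274 and 250 bp, from 18418025 to 18418298 and from 18418489 to 18418738, overlapped the same hypothalamus peak and the same liver peak. The summit −log10 p was 4.87 and 4.63 in muscle (percentiles 40.6 and 35.3), 16.7 in hypothalamus (percentile 93.4) and 3.93 in liver (percentile 17.5). At the promoter of PRKRA, it was 9.12 in muscle (percentile 88.0), 18.2 in hypothalamus (percentile 95.6) and 6.30 in liver (percentile 70.6), and the summits lay within 15 bp of that of muscle. The PRKRA peak had the highest summit of each list in the window. At the 3 promoters, hypothalamus had the highest percentile of the summit −log10 p and liver the lowest. By AUC, hypothalamus was again the highest. At FKBP7, however, the AUC of the liver peak (percentile 42.2) stood above those of the 2 muscle peaks (percentiles 28.2 and 23.9).

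**Figure D5:**
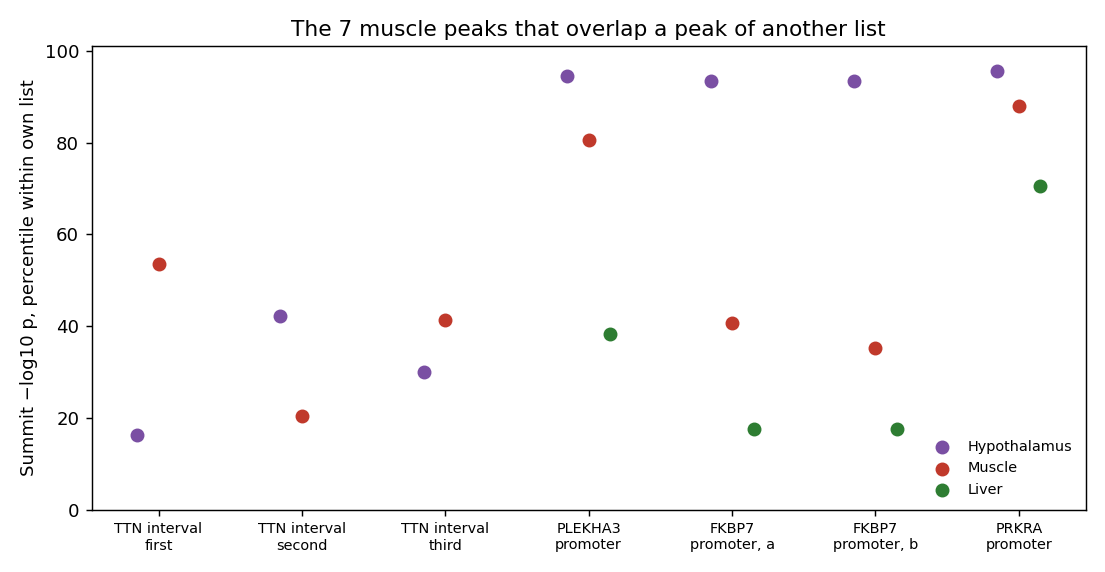
The 7 muscle peaks of the window that overlap a peak of another list, in the order of chromosome 2. The y axis is the percentile of the summit −log10 p within the list of each tissue (points), and a missing point means no overlapping peak; the promoters have points in all 3 tissues with hypothalamus between 93.4 and 95.6, whereas the 3 sites of the titin interval have no liver point and lie at or below 53.5.

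Muscle peaks without overlap in the other lists were also chained over gaps of up to 12.5 kb on chromosomes 1 to 29 and X, to compare the run with the rest of the list. This gave 7019 runs, 5085 of them of 1 peak, and the titin run of 109 such peaks ranked 1 in number, length and summed AUC. By number of peaks, the run on chromosome 28 from 9324218 to 9414229 ranked 2 with 46, and that on chromosome 25 from 25919948 to 25951255 ranked 4 with 22. The run ranked 3 is not reported here.

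These runs shared the low summits of the titin run. The median summit −log10 p was 3.89 in the titin run, 3.92 in the run on chromosome 28 and 3.88 in the run on chromosome 25. The median AUC per bp was at percentiles 8.65, 13.8 and 16.9 of the muscle list in the same order. With gaps of up to 5 kb, the titin run divided, its largest pieces held 38 and 27 peaks, and the run on chromosome 28 then ranked 1 of 8335 in number with 40. The piece of 38 peaks, from 18271846 to 18343004, still ranked 1 in summed AUC (42227 against 29830 on chromosome 28) and in length (71.16 against 70.86 kb).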

How the data were processed

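The 9 ATAC-seq libraries represent 3 tissues of 3 heifers. Reads were mapped by the authors with HISAT2 (build ARS-UCD1.2), several alignments per read being kept, and peaks were called with Genrich (version 0.6.1 in the submitters' processing notes), with the heifers analysed separately and combined by Fisher's method. The deposited signal of a peak is its AUC, and the deposited −log10 p is that of its summit. Neither is given per heifer. The window and all lists were chosen with earlier results of these data known.

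Starts, which the files count from 0, are printed from 1. A peak was shared when at least 1 bp overlapped. Percentiles were taken within each list. Shares were given 95% Wilson intervals, which treat neighbouring peaks as independent. Features and nearest genes of muscle peaks are those of the authors' annotation, in words. Named peaks were every liver peak, every promoter peak and every shared peak of the window, the 10 muscle peaks with the largest AUC, the muscle peaks with the highest summits, and the first and last peaks of the run. Others, among them the single hypothalamus peaks and the runs elsewhere, were named after their values were seen. The code (python 3.11.15 with pandas 2.3.3, numpy 2.4.6, scipy 1.17.1, and matplotlib 3.10.9 for plots) was tested on simulated data. Alternatives were a stricter summit, equal numbers of peaks per list, other rules of overlap, merged peaks, a wider window, chromosomes only and AUC per bp. Sequences, motifs, the coverage of the TTN gene itself, other sarcomere genes and markers of other cell types were not analysed here, since no genome of ARS-UCD1.2 was used and the annotation was used only for the peaks it names on chromosome 2.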

Additional observations from a re-analysis of the deposited data

How the results depend on the processing

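No paired analysis was possible because no peak has a value per heifer, and for the same reason no heifer could be left out. The number of muscle peaks fell under both settings that keep only higher summits. With only summits of −log10 p 5 or more, the window held 18 muscle, 6 hypothalamus and 1 liver peaks, 16 muscle peaks overlapped no other list, and the covered shares were 5.30% of the window in muscle, 0.111% in liver and 7.11% of the titin interval in muscle. The window then ranked 103 of 4337 in muscle peaks and 1, tied with at least 1 other, in those without overlap. With the strongest 22291 peaks of each list, it held 17 muscle and 3 hypothalamus peaks, 15 without overlap (rank 6), with 4.97% (muscle) and 0.819% (hypothalamus) of the window and 6.61% of the interval covered. As AUC per bp, the median percentile of the window's muscle peaks was 9.74 instead of 27.6. The share of the interval covered, 27.3%, became 68.9% in the most covered of 5 equal parts of the run. The alternatives for the interval were chosen after seeing the data. The other 24 of 39 comparisons stayed within 1.5 times the value or within its interval, with 113 to 120 muscle peaks without overlap under the other rules of overlap. The parts of the TTN gene, the motifs and the gene lists planned were not run. The depth behind each peak is unknown, which limits what the absence of a hypothalamus or liver peak shows.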
